A study of Mus musculus with 45 samples.

Results

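The genes described here are 10 genes of the tumor necrosis factor (TNF) system, chosen by name: the ligand Tnf, the receptors Tnfrsf1a and Tnfrsf1b, the adaptors and kinase at the receptors (Traf1, Traf2, Birc3 and Ripk1) and the TNF-induced regulators Tnfaip2, Tnfaip3 and Tnip1. All 10 were present in each of 3 count tables, which list 55450 identifiers for the slice cultures, 47643 for adult microglia and 43411 for brain tissue. Tnf lies on chromosome 17 (35199381 to 35202007, minus strand, GENCODE M21 on GRCm38), Tnfrsf1a on chromosome 6 (125349362 to 125362484, plus strand) and Tnfrsf1b on chromosome 4 (145213463 to 145246870, minus strand), and counts were taken per gene. Microglia, the resident macrophages of the brain, were sorted as CD11b high and CD45 intermediate cells in all microglia groups. Slice microglia came from coronal brain slices of neonatal C57BL/6 pups that had spent 2 weeks in culture, in a medium that held horse serum and PDGF in every group, and were then kept for 24 h in medium alone (9 libraries), with 50 ng/mL TNF (11 libraries) or with 20 ng/mL GM-CSF (9 libraries). Per the labels 3 slices were pooled for each library. Adult microglia came from female C57BL/6 mice of 10 to 15 weeks, 24 h after an intraperitoneal injection of 1 mg/kg lipopolysaccharide (LPS, from the bacterial cell wall) or of phosphate-buffered saline (PBS), with 4 libraries each. Brain tissue came from C57BL/6 mice of the same ages 24 h after the same dose of LPS or without treatment, with 4 libraries each, so that the brain control was not injected.

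TNF is made as a membrane protein and released by shedding, and it signals through 2 receptors. TNFR1, encoded by Tnfrsf1a, carries a death domain and recruits the kinase RIPK1, the ubiquitin ligase adaptor TRAF2 and the cIAP ligases (Birc3 encodes cIAP2), which together activate NF-kappaB. TNFR2, encoded by Tnfrsf1b, has no death domain and recruits TRAF2 and TRAF1. NF-kappaB in turn drives transcription of Tnf itself and of brakes on the pathway, among them Tnfaip3, which encodes the ubiquitin-editing enzyme A20, and Tnip1, which encodes the A20-binding protein ABIN1. Microglia are a main source of TNF in the brain.

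Slice libraries held 5973364 to 9165485 counts, adult microglia libraries 11391564 to 14216005 and brain libraries 8199863 to 10368578. Levels are given as CPM, read counts relative to the library total after scaling between libraries with TMM factors, and, where genes are compared with each other, as CPM per kilobase of exon. Genes counted as called, and are said to rise or fall, where edgeR's quasi-likelihood test gave a Benjamini-Hochberg adjusted p under 0.05 over all genes tested and the fold change exceeded 1.5. Per the study's methods the in vivo libraries came from independent mice, and the slices of a library were treated separately and then pooled, over several experiments. The labels do not tie slice libraries to experiments, and the p-values measure the spread between these libraries. The sum of 10 microglial marker genes lay between 12920 and 30760 CPM in sorted slice cells, between 44340 and 63730 in sorted adult cells and between 321 and 513 in brain tissue.

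Per length, the receptors were the most abundant of the 10 transcripts in every microglia group. In slice microglia in medium, Tnfrsf1b had 104 ± 14.4 CPM per kilobase (SD, n = 9) and Tnfrsf1a 57.3 ± 4.61, and these ranges did not overlap. Tnf followed at 18.9 ± 4.13 CPM per kilobase. The next genes, Tnfaip2 (15.97 ± 2.49), Tnfaip3 (9.58 ± 2.56), Traf2 (9.06 ± 1.08), Tnip1 (9.04 ± 1.70), Ripk1 (8.65 ± 1.37) and Birc3 (5.72 ± 1.014), each overlapped the gene just above it in the order. Traf1 was far below the others, at 0.144 ± 0.205 CPM per kilobase.

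Adult microglia after PBS had the same receptors on top, with Tnfrsf1b at 172 ± 9.38 CPM per kilobase (SD, n = 4) and Tnfrsf1a at 90.9 ± 2.51. Tnf stood much lower in the order than in the slice cultures, in place 9 of 10 at 2.33 ± 0.649 CPM per kilobase, and it overlapped neither Tnip1 above it nor Traf1 below it. In untreated brain tissue the order was another one: Tnip1 was highest at 7.64 ± 0.368 CPM per kilobase (n = 4), followed by Tnfrsf1a at 3.49 ± 0.163 and Traf2 at 2.22 ± 0.346, without overlap between these neighbours. Tnfrsf1b was in place 4 at 1.11 ± 0.0981 CPM per kilobase and overlapped Tnfaip3 below it, and Tnf was lowest at 0.0598 ± 0.0839. The 3 tables were normalized separately, and the brain libraries were made with another kit than the microglia libraries, so the places in the order are set side by side and not tested.

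**Figure D1:**
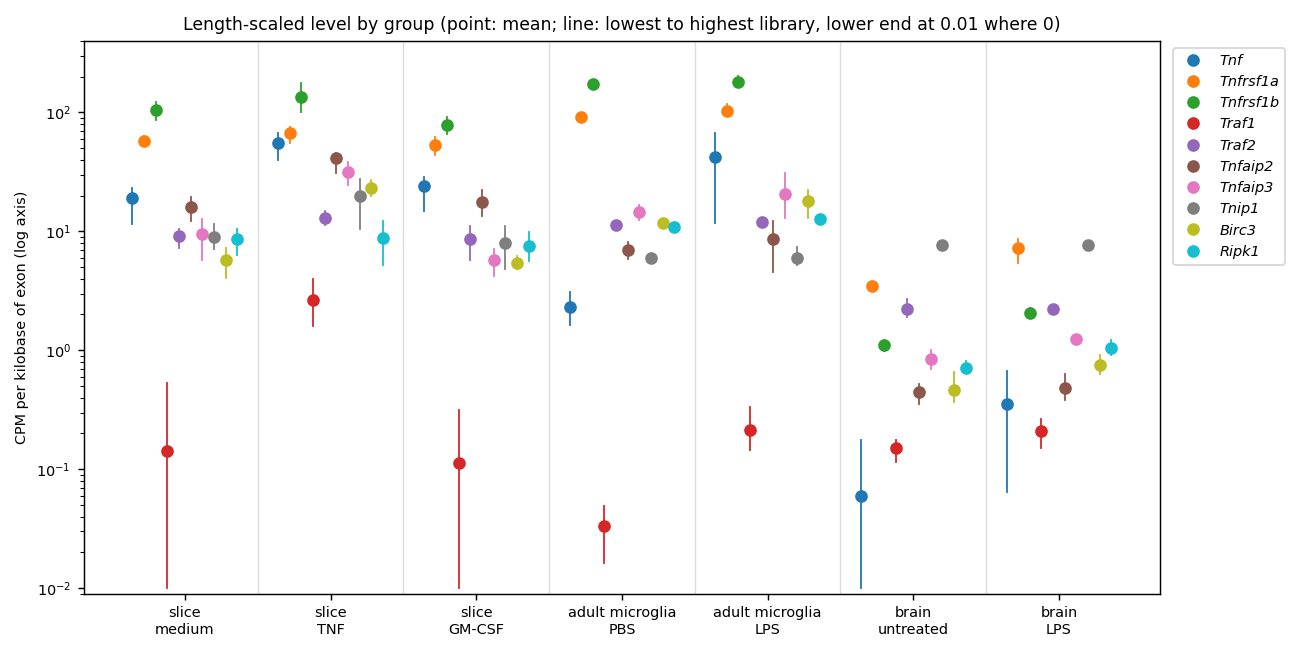
Level of each of the 10 genes in the 7 groups, in TMM-scaled CPM per kilobase of exon on a log axis (points are means, lines run from the lowest to the highest library, ending at 0.01 where a library was at 0). The receptors Tnfrsf1b and Tnfrsf1a lead in all 5 microglia groups, Tnip1 leads in both brain tissue groups, and Traf1 is lowest in every microglia group.

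The first question was what 24 h of exposure to TNF did to the transcripts of its own pathway in slice microglia. Of the 10 genes, 6 rose with TNF against medium, where 9.1% of the 11313 genes tested were called higher. The 6 were the ligand Tnf, the adaptor Traf1, the ligase Birc3 and the 3 TNF-induced regulators Tnfaip2, Tnfaip3 and Tnip1. Both receptors and Traf2 stayed under the 1.5-fold limit although their adjusted p passed, as it did for 9 of the 10 genes and for 39.6% of all genes. The median log2 fold change was 1.25 over the 10 genes and -0.03 over all genes tested.

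**Figure D2:**
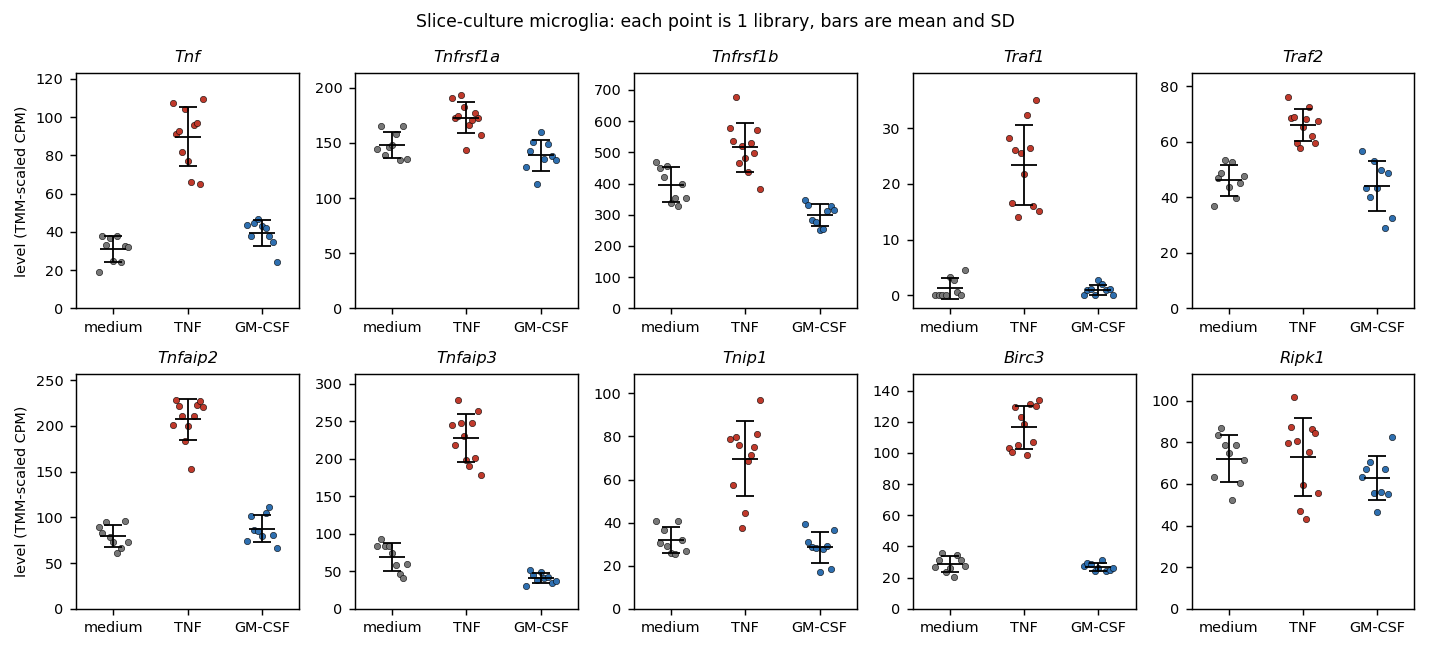
Level of each gene in every slice microglia library, in TMM-scaled CPM, by treatment (points are libraries, bars are mean and SD; 9, 11 and 9 libraries). With TNF, Tnf, Traf1, Traf2, Tnfaip2, Tnfaip3 and Birc3 lie above every medium library, while Ripk1 overlaps in all 3 groups.

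The ligand gene rose under its own protein. Tnf ranged from 18.9 CPM through a median of 32.5 to 37.9 in medium, and from 65.0 through 92.9 to 109 with TNF. All 11 TNF libraries lay above every medium library. The rise was 2.90-fold (log2 1.54 ± 0.13 SE, adjusted p = 3.34e-12). By title code, a code in the sample titles whose meaning the labels do not give, the log2 rise was 1.55 in the libraries coded 1A and 1B and 1.51 in those coded 2A and 2B.

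The receptors differed by less than the limit. Tnfrsf1b ranged from 329 CPM through a median of 399 to 470 in medium and from 382 through 520 to 676 with TNF, and the groups overlapped. Its log2 difference was 0.38 (95% confidence interval 0.21 to 0.55, adjusted p = 0.000481). For Tnfrsf1a the values were 134, 146 and 165 CPM in medium and 143, 173 and 193 with TNF, again with overlap, and the log2 difference was 0.22 (0.09 to 0.35, adjusted p = 0.0053). Both intervals end below the 1.5-fold limit.

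Of the genes of the receptor complex, Birc3 and Traf1 rose, and Traf2 and Ripk1 did not pass. Birc3 had the smallest p of the 10 genes: it ranged from 20.5 CPM through a median of 27.6 to 36.0 in medium and from 98.4 through 119 to 134 with TNF, without overlap, a 4.06-fold rise (log2 2.02 ± 0.10, adjusted p = 8.71e-19). Traf1, which encodes a TRAF without the ligase domain of the others, was at 0 counts in 5 of the 9 medium libraries and at most at 4.65 CPM there, and ranged from 14.0 CPM through 25.5 to 35.1 with TNF. In total 80 reads in medium and 1769 with TNF were assigned to Traf1. Its fitted rise of 18.7-fold (log2 4.23 ± 0.65, adjusted p = 2.68e-06) rests on this low medium level: in the libraries coded 2A and 2B it was 3.44 on the log2 scale, and in those coded 1A and 1B all 4 medium libraries were at 0.

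Traf2 ranged from 37.0 CPM through a median of 46.8 to 53.7 in medium and from 57.9 through 67.5 to 76.1 with TNF. The groups did not overlap, but the difference was 1.43-fold (log2 0.51 ± 0.10, adjusted p = 5.97e-05) and was not called. Its interval of 0.31 to 0.72 reaches past the 1.5-fold limit. Ripk1 had medians of 74.9 CPM in medium and 79.6 with TNF and ranges of 52.3 to 86.8 and 43.2 to 102. Its log2 difference was 0.01, with an interval of -0.25 to 0.27 that lies within the 1.5-fold limits. Ripk1 overlaps Serpinb6a on the opposite strand, to which 12893 reads were assigned in the slice table against 14817 for Ripk1, and whether strand was used in counting is not given in the sources used here.

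All 3 regulators named for induction by or interaction with this pathway rose. Tnfaip3 went from 41.2 to 92.5 CPM (median 74.4) in medium to 179 to 278 (median 231) with TNF, a 3.28-fold rise without overlap (log2 1.71 ± 0.13, adjusted p = 1.19e-13). Tnfaip2, which encodes a protein of membrane tubes and secretion, had 61.1 to 96.2 CPM (median 78.7) in medium and 153 to 228 (median 211) with TNF, a 2.60-fold rise without overlap (log2 1.38 ± 0.09, adjusted p = 2.39e-14). Tnip1 was the most variable of them: it had 25.3 to 40.9 CPM (median 30.6) in medium and 37.4 to 97.1 (median 75.2) with TNF, where 10 of 11 libraries lay above every medium library, and rose 2.18-fold (log2 1.12 ± 0.15, adjusted p = 1.9e-07).

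The summed microglial markers were lower with TNF (12920 to 16890 CPM) than in medium (22010 to 30760), with 6 of 10 markers called lower. Neutrophil markers summed to 94.2 to 217 CPM with TNF and 123 to 201 in medium, with Ly6g at 0 in both groups and 2 of 4 tested markers called higher, and border macrophage markers to 306 to 542 and 290 to 698, with 2 of 5 called lower. The part of these differences in the values above was not tested.

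The promoters of Tnfaip3 and Tnip1 are shown because they are the only members called with TNF whose RefSeq promoter window (250 bases before to 50 after the start, GRCm38.p6) held the NF-kappaB motif searched for. The motif was GGGANNTTCC, GGGGNNTTCC, GGGANNTCCC or GGGGNNTCCC on either strand, with overlapping matches counted, and N for any base. It was found in 2 of the 6 called genes, in 0 of the other 4, and in 4.95% of all 32851 windows. Each line gives the 130 bases before the start, 5′ to 3′ on the gene's strand, with the matches in capitals. The Tnfaip3 stretch is chr10:19015411-19015540 (minus strand), with matches 125 to 116 and 12 to 3 bases before the RefSeq start. In GENCODE M21 Tnfaip3 spans 19000910 to 19015657, so this stretch lies within the gene as annotated there. A second RefSeq window of Tnfaip3 (chr10:19011914-19012213) held 0 matches. The Tnip1 stretch is chr11:54962941-54963070 (minus strand), with 3 overlapping matches between 58 and 47 bases before the RefSeq start.
Tnfaip3: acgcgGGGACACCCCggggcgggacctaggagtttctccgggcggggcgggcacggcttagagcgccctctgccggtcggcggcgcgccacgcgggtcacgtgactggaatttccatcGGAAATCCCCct
Tnip1: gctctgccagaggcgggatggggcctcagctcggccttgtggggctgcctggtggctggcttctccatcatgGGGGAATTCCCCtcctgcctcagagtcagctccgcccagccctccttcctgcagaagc
These matches describe the letters of the window, and none in the other windows says nothing about regulation from elsewhere. Beside these sequences, Tnfaip3 rose 3.28-fold and Tnip1 2.18-fold with TNF, while Birc3, with no match in its window, rose 4.06-fold.

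GM-CSF, a growth factor of myeloid cells that signals through its own receptor, served as the second cytokine. Only Tnfaip3 was called with GM-CSF, and it fell, which is 1 of 10 genes against 10.8% of the 11313 genes tested. The median log2 fold change was -0.13 over the 10 genes and -0.04 over all genes. The medium libraries are the same as in the comparison with TNF, and the microglial marker sum was 16280 to 18090 CPM with GM-CSF, with 6 of 10 markers called lower, whose part in the result was not tested.

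Tnfaip3 ranged from 30.7 CPM through a median of 40.9 to 51.7 with GM-CSF, against 41.2, 74.4 and 92.5 in medium, and 5 of 9 GM-CSF libraries lay below every medium library. It fell by 0.75 ± 0.13 on the log2 scale (adjusted p = 2.78e-05). By title code, medium libraries coded 1A and 1B had 85.9 ± 4.43 CPM (SD, n = 4) and those coded 2A and 2B 55.9 ± 13.1 (n = 5). GM-CSF libraries had 41.5 ± 9.13 (n = 4) and 40.9 ± 5.75 (n = 5). Within codes 1A and 1B the log2 difference was -1.05 (adjusted p = 1.86e-05), and within 2A and 2B it was -0.44 and no longer called (adjusted p = 0.0743). Whether the fall itself differed between the codes was not tested.

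Tnfrsf1b ranged from 250 CPM through a median of 311 to 349 with GM-CSF, and 6 of 9 libraries lay below every medium library. Its log2 difference from medium was -0.40 (interval -0.59 to -0.22, adjusted p = 0.000746), under the 1.5-fold limit. Medium libraries coded 1A and 1B had 449 ± 20.8 CPM (SD, n = 4) and those coded 2A and 2B 355 ± 26.9 (n = 5). Within codes 1A and 1B the log2 difference was -0.53 (adjusted p = 0.00145), and within 2A and 2B it was -0.27 (adjusted p = 0.12). Tnf ranged from 24.2 CPM through 42.1 to 46.9, with 6 of 9 libraries above every medium library, and its log2 difference was 0.35 (0.08 to 0.62, adjusted p = 0.047), also under the limit though the interval reaches past it. The other 7 genes had an adjusted p over 0.3: the log2 differences were -0.10 for Tnfrsf1a, -0.07 for Traf2, 0.14 for Tnfaip2, -0.17 for Tnip1, -0.09 for Birc3, -0.20 for Ripk1 and -0.30 for Traf1, whose interval was -1.76 to 1.17 and which was at 0 counts in 5 of 9 medium and 3 of 9 GM-CSF libraries.

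Set against each other, the cytokines separated 7 of the 10 genes, all higher with TNF than with GM-CSF, where 8.25% of all genes tested were called higher. These were the 6 genes that rose with TNF and Tnfrsf1b. Tnfaip3, higher with TNF and lower with GM-CSF than in medium, differed by 5.52-fold (log2 2.46 ± 0.13, adjusted p = 2.98e-17), Birc3 by 4.33-fold, Tnip1 by 2.44-fold, Tnfaip2 by 2.36-fold and Tnf by 2.27-fold. Tnfrsf1b was 1.72-fold higher (log2 0.78 ± 0.09, adjusted p = 3.35e-09), and all 11 TNF libraries lay above every GM-CSF library. The TNF libraries are those already compared with medium. Traf2 was at the edge of the call: its difference of 1.49-fold (log2 0.58, adjusted p = 1.35e-05) fell just inside the limit, and 4 of 10 alternative settings called it. Tnfrsf1a differed by 0.32 and Ripk1 by 0.21 on the log2 scale, neither of them called.

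**Figure D3:**
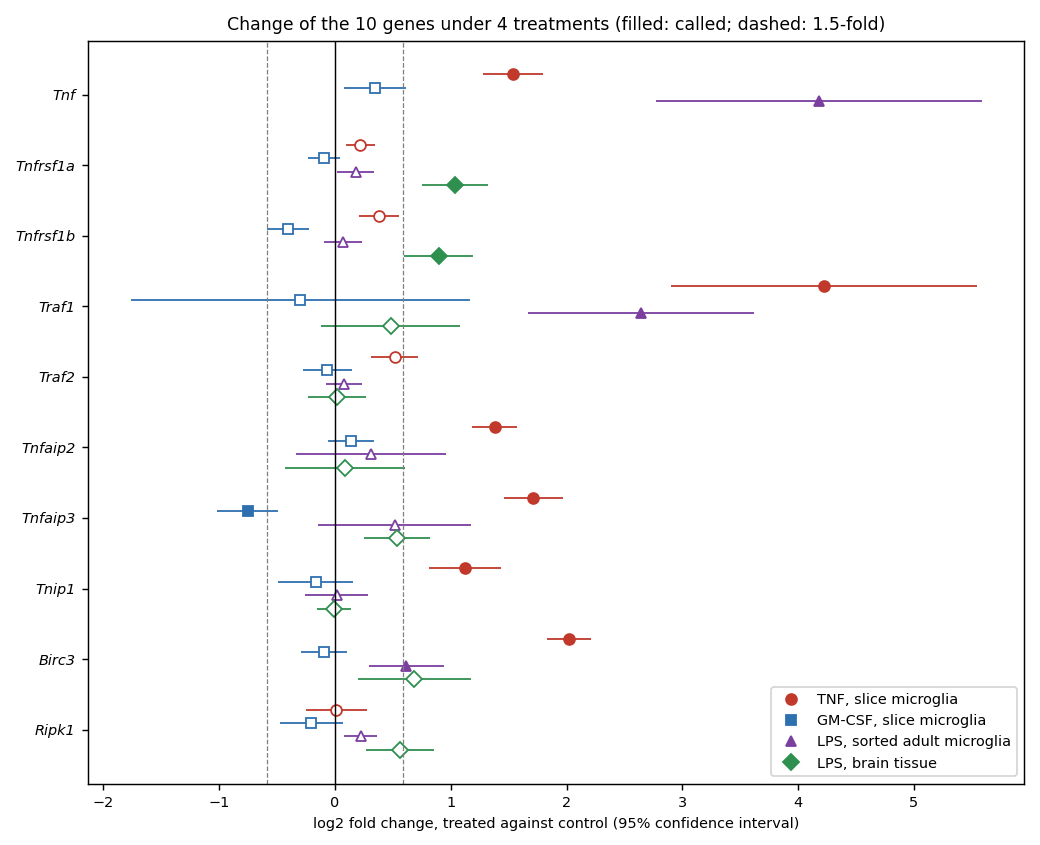
Log2 fold change of the 10 genes under the 4 treatments against their controls, with 95% confidence intervals (filled symbols are called, dashed lines mark 1.5-fold). Tnf and Traf1 rose with TNF in slices and with LPS in adult microglia, both receptors rose with LPS in brain tissue, and Tnfaip3 fell with GM-CSF. Tnf in brain tissue had too few reads to be plotted.

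LPS, which is sensed by Toll-like receptor 4 and induces Tnf in macrophages, was given in vivo. In adult microglia sorted 24 h later, Tnf rose 18.1-fold, and Birc3 and the scarce Traf1 rose as well. These are 3 of the 10 genes, where 14.4% of the 12987 genes tested were called higher. Tnfaip2, Tnfaip3 and Tnip1, all higher with TNF in slice microglia, were not called, nor were the receptors. The median log2 fold change was 0.27 over the 10 genes and 0.01 over all genes.

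Tnf was at 2.66, 5.10, 3.30 and 4.18 CPM in the 4 PBS libraries and at 110, 19.2, 57.7 and 89.7 in the 4 LPS libraries. The groups did not overlap, and LPS replicate 2 was the lowest of its group. The log2 difference was 4.18 ± 0.60 (adjusted p = 0.000914), and 4.49 without that replicate. Traf1 was at 0.144, 0.431, 0.161 and 0.433 CPM after PBS and at 1.68, 1.28, 1.61 and 2.94 after LPS, from 16 reads in the PBS group and 99 in the LPS group. It rose 6.24-fold (log2 2.64 ± 0.45, adjusted p = 0.000415) without overlap.

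Birc3 was at 57.6, 58.3, 58.6 and 59.9 CPM after PBS, a very narrow range, and at 112, 65.0, 79.4 and 103 after LPS. All LPS libraries were higher, and the rise was 1.53-fold (log2 0.62 ± 0.15, adjusted p = 0.00512). It lies near the 1.5-fold limit: without LPS replicate 1 it was 0.48 and without LPS replicate 4 it was 0.55 on the log2 scale, and neither was called.

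Tnfaip3 was at 120, 115, 90.3 and 93.8 CPM after PBS and at 175, 93.1, 109 and 223 after LPS, so LPS replicates 1 and 4 stood above the PBS range and the other two lay within it. The log2 difference was 0.52 with an interval of -0.14 to 1.18 (adjusted p = 0.167), which reaches past the limit. Tnfaip2 was at 40.5, 29.2, 36.2 and 33.7 CPM after PBS and at 52.5, 22.6, 37.0 and 60.4 after LPS, where replicates 1 and 4 lay above every PBS library and replicate 2 below every one (log2 0.31, interval -0.34 to 0.96). Across the LPS libraries replicate 2 was lowest for Tnf, Tnfrsf1b, Traf1, Tnfaip2, Tnfaip3 and Birc3, but not for Tnfrsf1a, Traf2, Tnip1 or Ripk1.

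For the receptors the intervals stayed within the limits. Tnfrsf1b was at 697, 664, 653 and 610 CPM after PBS and at 769, 641, 674 and 669 after LPS, with overlap, and its log2 difference of 0.07 had an interval of -0.09 to 0.23. Tnfrsf1a was at 237, 236, 243 and 227 CPM after PBS and at 302, 250, 269 and 246 after LPS, all 4 above the PBS libraries, with a log2 difference of 0.18 (0.02 to 0.34, adjusted p = 0.0598). Ripk1 differed by 0.22 (0.08 to 0.36, adjusted p = 0.0121), Traf2 by 0.08 (-0.08 to 0.23) and Tnip1 by 0.01 (-0.26 to 0.28), and all of these intervals lie within the 1.5-fold limits.

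Border macrophage markers summed to 27.3 to 44.5 CPM after LPS and 10.1 to 15.7 after PBS, with 3 of 3 tested called higher. Neutrophil markers summed to 447 to 675 and 619 to 718 CPM, with 4 of 5 called lower and Ly6g and Retnlg at 0 after LPS, and monocyte markers to 5.53 to 9.48 and 13.1 to 17.9, with 2 of 4 called lower. Endothelial markers summed to 10.5 to 13.9 CPM after LPS and 30.3 to 37.5 after PBS, with 2 of 2 called lower, astrocyte markers to 145.5 to 181 and 254 to 280, with 1 of 2 called lower, and oligodendrocyte markers to 134 to 156 and 177 to 200.4, with 1 of 4 called lower. The microglial sum was 44340 to 48170 CPM after LPS and 57550 to 63730 after PBS. The part of these cells in the results was not tested.

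**Figure D4:**
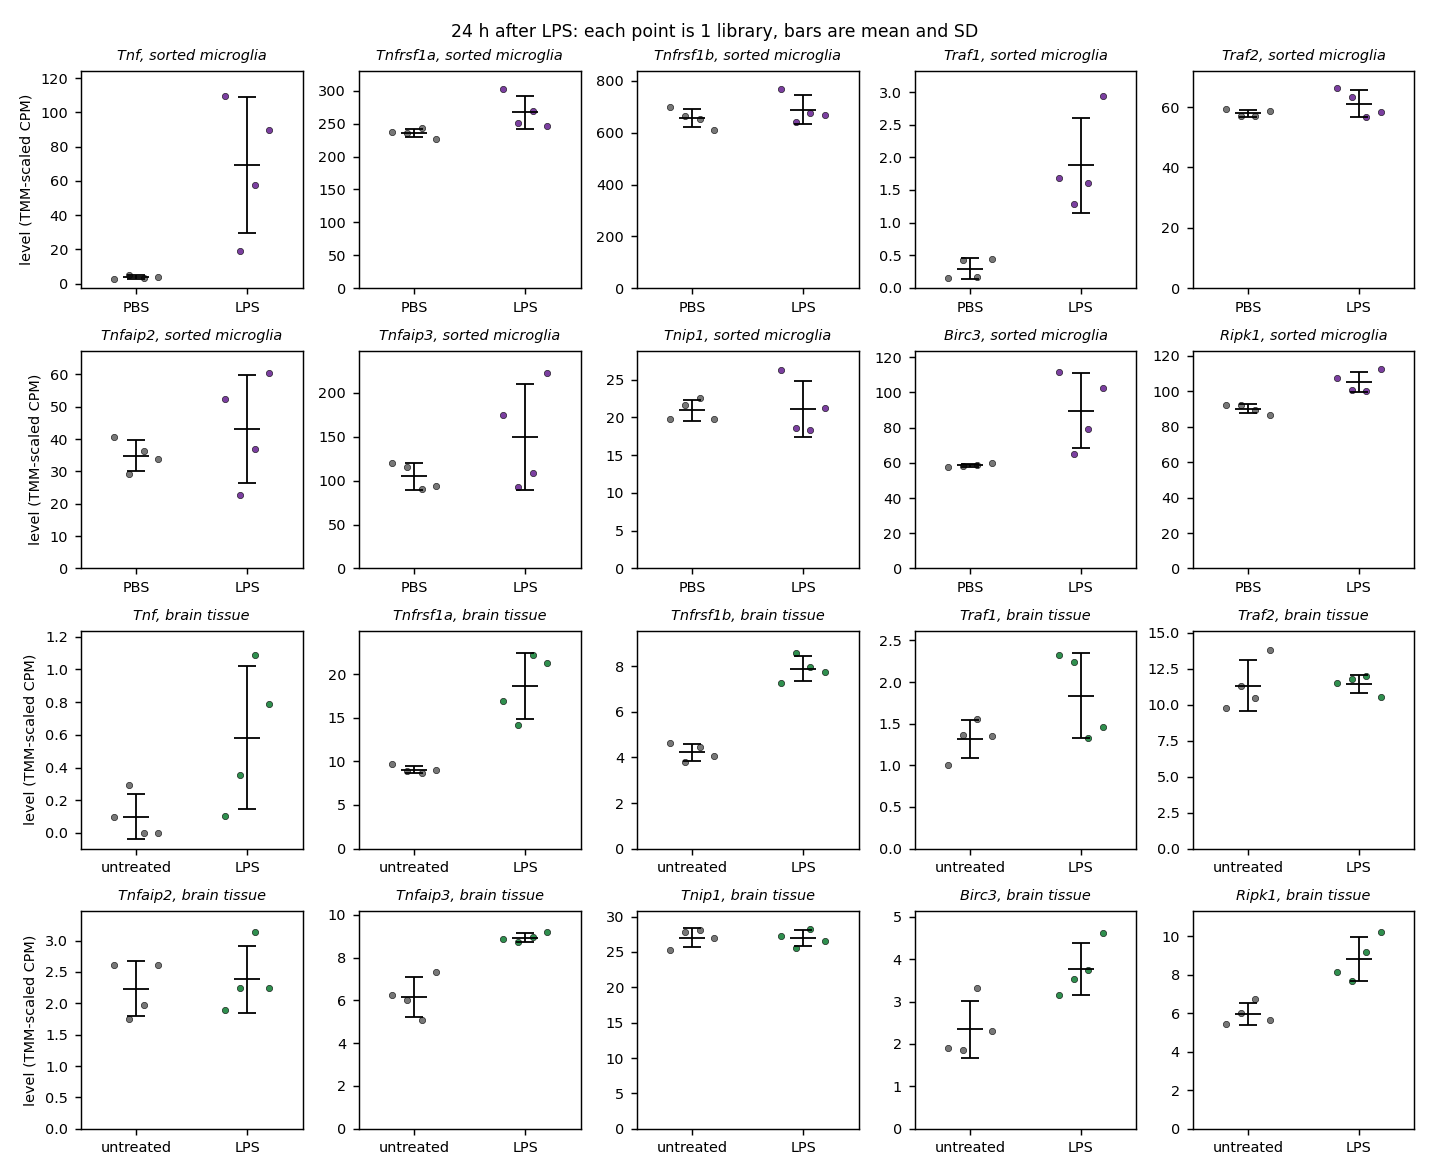
Level of each gene in every adult microglia library (upper 2 rows) and brain tissue library (lower 2 rows), in TMM-scaled CPM (points are libraries, bars are mean and SD, n = 4 per group). Tnf separates LPS from PBS in sorted microglia, and both receptors separate LPS from untreated in brain tissue, where Tnf stays near 0.

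In brain tissue both receptors rose after LPS, and the ligand was close to 0. Of the 9 genes tested, 2 were called, both higher, against 2.63% of the 15083 genes tested. The median log2 fold change was 0.54 over the 9 genes and 0.00 over all genes. In bulk tissue, more cells of a type and more RNA per cell cannot be told apart.

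Tnfrsf1a was at 9.65, 8.84, 8.69 and 8.99 CPM in untreated brain tissue and at 16.9, 14.2, 22.2 and 21.2 after LPS. It rose 2.06-fold without overlap (log2 1.04 ± 0.13, adjusted p = 0.000122). Tnfrsf1b was at 4.62, 3.79, 4.45 and 4.08 CPM and at 7.28, 8.61, 7.98 and 7.75, a 1.86-fold rise without overlap (log2 0.90 ± 0.14, adjusted p = 0.000612). Both were called under all 15 alternative settings, with log2 ranges of 0.95 to 1.15 and 0.85 to 0.94.

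Marker sums of some cell types also differed between the groups. Endothelial markers summed to 172 to 186 CPM in untreated tissue and 215 to 301 after LPS, with 3 of 6 called higher. Microglial markers summed to 328 to 366 and 321 to 513, with 1 of 10 called higher and 1 lower. Border macrophage markers summed to 5.43 to 7.86 and 9.31 to 13.2 (2 of 4 called higher), and neutrophil markers to 5.53 to 8.18 and 11.6 to 16.2 (1 of 2). Of astrocyte markers 1 of 6 was called higher, and 0 of 3 monocyte and 0 of 6 neuron markers were called. Oligodendrocyte markers were lower after LPS, at 3773 to 4434 CPM against 5224 to 5618, with 2 of 5 called lower. The part of these cell types in the receptor values was not tested.

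Tnf itself had 1, 3, 0 and 0 reads in the untreated libraries and 1, 3, 9 and 7 after LPS, and did not pass the filter on low counts. Mean levels were 0.0980 and 0.583 CPM, and the groups overlapped. An exact two-sided permutation test of the CPM gave p = 0.0571, where 0.0286 is the smallest p that 4 against 4 libraries allow. A difference was not detected at these few reads.

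Tnfaip3 and Ripk1 stood just under the 1.5-fold limit in brain tissue. Tnfaip3 was at 6.23, 6.03, 5.07 and 7.31 CPM untreated and at 8.86, 8.72, 8.95 and 9.21 after LPS, without overlap (log2 0.54 ± 0.13, adjusted p = 0.0177). Ripk1 was at 5.43, 6.03, 6.73 and 5.64 CPM and at 8.12, 7.66, 9.19 and 10.2, also without overlap (log2 0.56 ± 0.14, adjusted p = 0.0162). The opposite-strand gene Serpinb6a held 1718 reads here against 544 for Ripk1, so the Ripk1 value is uncertain. Leaving out untreated replicate 4 brought Tnfaip3 past the limit (0.63), and leaving out LPS replicate 1 (0.60), LPS replicate 2 (0.62) or untreated replicate 3 (0.62) did the same for Ripk1.

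Birc3 was at 1.91, 1.85, 3.31 and 2.30 CPM untreated and at 3.17, 3.54, 3.75 and 4.61 after LPS, with a log2 difference of 0.68 (0.20 to 1.17) that was not called (adjusted p = 0.0735). Untreated replicate 3, the highest of its group, decides this: without it the difference was 0.90 and was called (adjusted p = 0.0322). Traf1 had 10 to 15 reads per untreated library and 11 to 22 after LPS (log2 0.48, interval -0.12 to 1.08). Traf2 (0.02, interval -0.24 to 0.27) and Tnip1 (-0.01, -0.15 to 0.14), the most abundant of the 10 transcripts per length in this tissue, lay within the 1.5-fold limits, and Tnfaip2 (0.09, -0.43 to 0.60) did not lie wholly within them.

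Whether LPS acted differently in sorted microglia and in brain tissue was tested as an interaction over all 16 in vivo libraries. The effects differed for 3 of the 10 genes, against 19.7% of the 16676 genes tested. The LPS effect was smaller in sorted microglia than in brain tissue for Tnfrsf1a (difference -0.87 ± 0.15 on the log2 scale, adjusted p = 0.000151) and Tnfrsf1b (-0.84 ± 0.14, adjusted p = 9.23e-05), and larger for Traf1 (2.15 ± 0.52, adjusted p = 0.00334). For Ripk1 the difference was -0.35 (adjusted p = 0.0441), under the 1.5-fold limit. For Tnf it could not be estimated with any precision (1.80, interval -4.78 to 8.38), since brain tissue held so few reads. Cell type, library kit, read type and the kind of control (injected or not) coincide with the tissue, and cannot be told apart from it.

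The wider pathway was described with 6 lists of other genes, 93 in all. With TNF in slice microglia, 68 of the 93 were tested, and 19 rose, 6 fell and 43 were not called, where 9.1% of all genes rose and 11.7% fell. The median log2 fold change was 0.19 against -0.03 over all genes. Among other TNF superfamily ligands, 2 of 5 tested rose: Tnfsf9, the ligand of 4-1BB, from 10.4 ± 3.05 CPM (SD, n = 9) to 65.1 ± 10.4 (n = 11), and Tnfsf10, which encodes TRAIL, from 1.58 ± 2.23 to 9.41 ± 4.27. Tnfsf12, which encodes TWEAK, fell from 6.46 ± 1.24 to 3.79 ± 0.983 CPM. Of 8 other receptors, 3 rose and 1 fell: the costimulatory receptors Cd40 (6.91 ± 3.01 to 91.9 ± 24.3 CPM) and Tnfrsf9 (66.9 ± 24.7 to 341 ± 72.5) rose together with Fas, and Tnfrsf13b, a receptor for the B cell factors BAFF and APRIL, fell from 78.8 ± 14.9 to 33.8 ± 7.74.

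Of 21 adaptors, ligases and kinases of the receptor complex, 4 rose with TNF and 1 fell, beside 9.1% and 11.7% of all genes. The kinase gene Ikbke rose from 34.2 ± 10.8 to 151 ± 28.9 CPM, Tank, whose product binds it, from 38.6 ± 9.36 to 96.1 ± 27.8, and Map3k14, which encodes the NIK kinase of the alternative NF-kappaB route, fell from 17.1 ± 4.67 to 8.25 ± 2.74. Of 12 other brakes, 4 rose, Tnip3 (by 3.79 on the log2 scale), Tnip2 and the NF-kappaB inhibitors Nfkbia (214 ± 25.5 to 862 ± 62.4 CPM) and Nfkbie (29.9 ± 7.18 to 152 ± 24.2). In the death arm 3 of 10 rose, Zbp1, a nucleic acid sensor that engages RIPK3 (9.45 ± 4.02 to 148 ± 39.4 CPM), Mlkl, the executor of necroptosis (1.84 ± 1.37 to 17.2 ± 6.13), and Cflar, while Bid fell. Of 12 genes of TNF shedding and mRNA stability, Mapkapk2, Rhbdf2 and Sppl2a rose and Zfp36l2 and Rhbdf1 fell. Rhbdf2 and Rhbdf1 encode the iRhom partners of the TNF-shedding enzyme ADAM17, and went from 76.5 ± 11.4 to 173 ± 28.1 CPM and from 14.4 ± 4.42 to 7.61 ± 3.73.

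With GM-CSF, 2 of the 68 pathway genes tested rose and 9 fell, where 4.84% of all genes rose and 5.96% fell, with a median of -0.11 against -0.04 over all genes. The falls included 4 of 12 brakes, Zfp36 (275 ± 37.9 to 172 ± 29.6 CPM; it encodes tristetraprolin, which speeds decay of the Tnf mRNA), Nfkbie (29.9 ± 7.18 to 18.0 ± 4.11), Optn and Tnip3. Fas and Tnfrsf11a fell among the receptors, and Map3k14 fell to 7.56 ± 3.01 CPM. Ripk3 rose from 21.8 ± 2.43 to 35.5 ± 5.22 CPM, and Tnfsf8 from 0.590 ± 0.732 to 4.72 ± 1.71. Directly between the cytokines, 21 of the 68 were higher with TNF than with GM-CSF and 3 were lower, beside 8.25% and 7.96% of all genes, with Nfkbie 8.49-fold and Zbp1 28.7-fold higher.

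**Figure D5:**
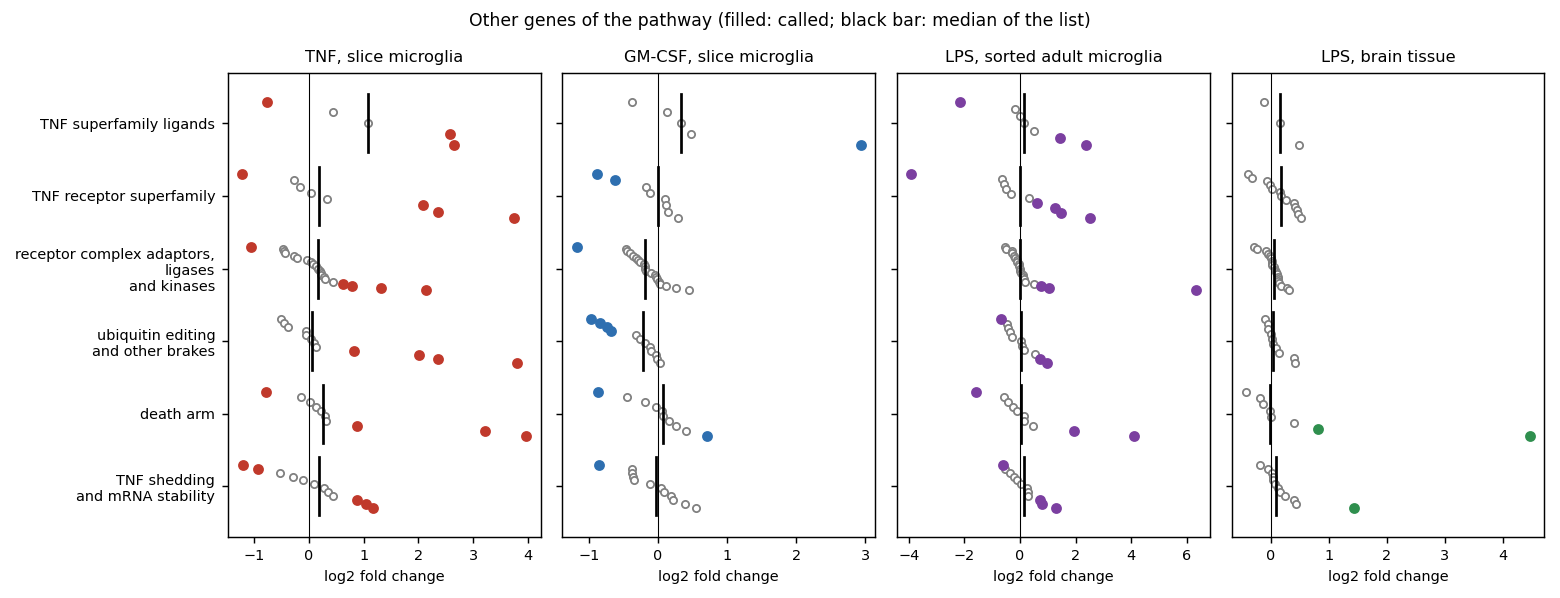
Log2 fold change of the other pathway genes in 6 lists under the 4 treatments (filled points are called, open points are not, black bars are list medians; the axes differ between panels). With TNF 19 of 68 genes rose and 6 fell, with GM-CSF 2 rose and 9 fell, with LPS in adult microglia 16 of 71 rose and 5 fell, and in brain tissue 3 of 66 rose.

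After LPS in adult microglia, 16 of 71 pathway genes tested rose, 5 fell and 50 were not called, where 14.4% of all genes rose and 13% fell, with a median of 0.02 against 0.01 over all genes. Tnfsf13, which encodes APRIL, rose from 3.02 ± 0.307 CPM (SD, n = 4) to 15.7 ± 2.93 (n = 4) and Tnfsf9 from 2.62 ± 0.243 to 7.18 ± 2.23, while Ltb, which encodes lymphotoxin beta, fell from 8.41 ± 1.06 to 1.88 ± 0.619. Tnfrsf11a, Tnfrsf12a, Fas and Cd40 rose among 10 other receptors tested, and Tnfrsf17, the receptor BCMA, fell from 17.3 ± 1.40 to 1.16 ± 0.605 CPM. Tank (31.5 ± 1.38 to 65.3 ± 7.31 CPM), Ikbke (0.222 ± 0.0605 to 18.2 ± 9.18) and Rnf31 rose at the receptor complex. Nfkbia rose from 118 ± 31.0 to 233 ± 59.2 CPM among the brakes, with Tnip2, while Rnf11 fell. Zbp1 and Mlkl rose in the death arm, and Rhbdf2 rose from 29.4 ± 1.83 to 72.7 ± 16.7 CPM.

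In brain tissue, 3 of 66 pathway genes tested rose after LPS, where 2.63% of all genes did: Zbp1 (0.204 ± 0.0871 to 4.82 ± 0.885 CPM, n = 4 each), the initiator caspase gene Casp8 (2.26 ± 0.160 to 3.94 ± 1.09) and Rhbdf2 (1.37 ± 0.347 to 3.75 ± 0.540). The LPS effect differed between sorted microglia and brain tissue for 19 of 79 pathway genes, beside 19.7% of all genes. It was larger in microglia for 6 (9.1% of all genes), such as Tank (difference 1.02 ± 0.12 on the log2 scale), and smaller for 13 (10.6% of all genes), such as Casp8 (-1.23 ± 0.18).

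The genes whose changes under the treatments were most like those of Tnf were sought among 9700 genes tested in all 3 tables, by the root mean square difference of their log2 fold changes. Because Tnf had no fitted value in brain tissue, the other 3 treatments were used. Ptger4, a prostaglandin E2 receptor, was nearest at 0.11 (1.56 with TNF, 0.45 with GM-CSF and 4.02 with LPS in adult microglia), followed by Chpf (0.35), Slc39a14 (0.41), Socs3 (0.45) and Ms4a6c (0.46). For Tnfrsf1b over all 4 treatments the nearest were Agpat2 (0.12), Spi1 (0.13), Tap2 (0.14), Ptpn6 (0.15) and Casp1 (0.17). Spi1, which encodes the myeloid transcription factor PU.1, differed by 0.34 with TNF, -0.20 with GM-CSF, -0.10 with LPS in adult microglia and 0.89 with LPS in brain tissue.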

How the data were processed

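RNA sequencing data of 45 mouse samples in 7 groups were used. For slice microglia the authors deposited raw counts per gene, and for adult microglia and brain tissue expected counts (estimated counts, not normalized), of which 70872 and 69680 values were not whole and were rounded. Microglia libraries were made with a SMART-Seq v4 and Nextera XT protocol and brain libraries with TruSeq. The submitters' processing notes name mm10 and, for slices, STAR 2.7.0a, featureCounts and Subread 1.6.4. The counting tool of the other tables is not given in the sources used here. Rows naming no gene (92, brain tissue) held 0 counts and were left out. Columns without a sample numbered 0.

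Symbols and exon lengths came from GENCODE M21. Tests used edgeR 4.0.16 under R 4.3.3 (quasi-likelihood F test, TMM factors, robust, minimum count 10, minimum total 15). Calls needed an adjusted p under 0.05 and over 1.5-fold. The 29 slice libraries were fitted together and the in vivo tables each alone, except that the difference between LPS effects was fitted over all 16 in vivo libraries, and the exact permutation test used scipy 1.17.1. Scripts were tested on simulated data. Libraries of a group differed by more than sampling noise, with a chi-square per degree of freedom of 1.80 or more. The genes and lists were chosen with earlier results of these data known. Named were all 10 genes, the 2 called pathway genes of smallest p per list and direction, and the 5 genes nearest to Tnf and Tnfrsf1b; other called genes were named after their values were seen. A list gene named by this rule is not reported here. Alternatives were total counts, RLE, DESeq2 1.42.0, limma-voom (limma 3.58.1), no filter, a minimum count of 30, a replicate block, title code and single libraries left out.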

Additional observations from a re-analysis of the deposited data

Results flagged for a closer look

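3 results were set apart because the effect of LPS differed between sorted adult microglia and brain tissue in a test of the difference itself. For Tnfrsf1a the LPS effect in adult microglia minus that in brain tissue was -0.87 on the log2 scale and for Tnfrsf1b it was -0.84, and both were called under all 23 alternative settings. For Traf1 the difference was 2.15, called under all 22 alternatives that could give a value, and it rests on 16 reads in the PBS and 99 in the LPS microglia libraries. No library stood apart by Dixon's test among the 60 sets of a gene and a group of 4 to 10 libraries.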

How the results depend on the processing

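Of 811 alternative values over 59 results on single genes, 754 kept direction and side of the threshold, 45 turned direction (1 of them, Traf1 with GM-CSF within title codes 1A and 1B, to a call), 9 others came to be called and 3 lost the call; the cause was not tested. Total counts in place of TMM moved the median of all genes to -0.19 for TNF against GM-CSF (-0.02 with TMM) and to 0.07 for GM-CSF against medium (-0.04). With TNF, Ripk1 turned to -0.0574 with total counts, -0.0268 with limma-voom, -0.0012 with the replicate block and -0.0301 within title codes 1A and 1B. With GM-CSF, total counts turned Tnfrsf1a to 0.01, Traf2 to 0.0386 and Birc3 to 0.0131. Traf1 turned to 0.79 with limma-voom and to 5.14 (called, medium all at 0) within 1A and 1B, where Traf2 was 0.0569 and Tnfaip2 -0.0023. With GM-CSF, 1222 genes were called over all codes and 785 within 2A and 2B, 1 gene of the 10 became 2 within 1A and 1B and 0 within 2A and 2B, where Tnfaip3 was -0.44 (edgeR adjusted p = 0.0743), and 11 pathway genes became 7 and 5. Tnip1 turned to -0.0065 without filter in adult microglia, to 0.0114 with total counts in brain tissue, and in the difference between them to -0.0044 with total counts, -0.0203 with RLE and -0.0196 with DESeq2, where Tnfaip3 was 0.0023 without filter. In brain tissue 3 pathway genes became 5 without filter and 1 at a minimum count of 30. Between the cytokines, Traf2 was called at a minimum count of 30 (0.59), with limma-voom (0.60), with the block (0.61) and within 2A and 2B (0.68).

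Leaving out 1 library gave log2 values that crossed 0 for genes not called: Tnip1 in adult microglia (-0.116 to 0.0795), in brain tissue Traf2 (-0.0481 to 0.125), Tnfaip2 (-0.0709 to 0.184) and Tnip1 (-0.0382 to 0.0156), and in the difference Traf2 (-0.0557 to 0.117), Tnfaip3 (-0.282 to 0.139), Tnip1 (-0.107 to 0.0714) and Birc3 (-0.289 to 0.0426). Of the 10 genes, 2 to 4 were called in brain tissue, with 4 without untreated replicate 3.

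Deviations of libraries with the same replicate number in different groups correlated at -0.033 to 0.0206 (adult microglia) and -0.0779 to 0.0428 (brain tissue). In both, 0 of 4 pairs passed 0.1. In slices the range was -0.0415 to 0.184, and 8 of 27 pairs passed 0.1. The slice median was 0.0719, against -0.021 for libraries of other numbers. Slice libraries with the same title code correlated at a median of 0.0714 and those with other codes at -0.0574. The main fit held no term for title code. With the replicate block, 2423 genes were called with TNF, 1258 with GM-CSF, 1828 between the cytokines, 3452 in adult microglia, 448 in brain tissue and 3222 in the difference, and of the 10 genes 6, 1, 8, 3, 2 and 3. Few reads limit Tnf and Traf1 in brain tissue and Traf1 in medium and after PBS.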
